A study of Rattus norvegicus with 8 samples.

Results

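The genes described here are 10 negative-feedback regulators and scaffolds of the extracellular signal-regulated kinase (ERK) pathway, chosen by name: Dusp4, Dusp5, Dusp6, Spry1, Spry2, Spry4, Spred1, Spred2, Spred3 and Ksr1. They were 10 of the 32883 genes counted, and all 10 had enough reads to be tested. Growth factor receptors activate RAS, and RAS recruits RAF kinases, which phosphorylate MEK, which in turn phosphorylates ERK. Active ERK induces the transcripts of several of its own brakes, among them dual-specificity phosphatases that remove its activating phosphates and Sprouty and Spred proteins that act further upstream, so the mRNA of these genes is widely used as a record of recent pathway activity. Ksr1 differs from the others in being a scaffold that brings RAF, MEK and ERK together.

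Nucleus pulposus (NP) cells, which fill the soft centre of the intervertebral disc, were isolated from rats and profiled by RNA-seq to ask how loss of the deacylase SIRT6 alters their transcriptome. The cells came from adult Sprague Dawley rats and were transduced in culture with lentiviruses carrying either a mixture of 3 ShSirt6 clones (genotype SIRT6KD/ShSirt6, here Sirt6-KD, n = 4) or a control ShRNA (genotype SIRT6Ctrl/ShCtrl, here Sirt6-Ctrl, n = 4), so both groups had been through viral transduction and puromycin selection. Libraries S1 to S4 were Sirt6-Ctrl, libraries S5 to S8 were Sirt6-KD, and the methods give 4 independent experiments. The series record speaks of 4 rats and of controls for each, but no label ties a Sirt6-KD library to a Sirt6-Ctrl library, and the groups were compared unpaired.

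Libraries held 31994838 to 40124813 counted reads, and levels are given in CPM (counts divided by the library size in units of 1e6) after TMM normalization. The knockdown was visible in every library: Sirt6 went from 52.7 ± 3.78 CPM in the Sirt6-Ctrl libraries to 20.6 ± 1.07 CPM (SD, n = 4), a log2 fold change of -1.35 (adjusted p = 0.000713, edgeR's quasi-likelihood test with Benjamini-Hochberg adjustment, as for every adjusted p unless another tool is named). S1 and S2 stood apart from the other libraries. Synthetic spike-in RNAs took 6.27% of the reads in S1 and 9.80% in S2, against 2.97% and 3.08% in S4 and S3 and 2.15% to 2.47% in S5 to S8. Every Sirt6-Ctrl library thus had a higher share than every Sirt6-KD library. Between the 2 groups the two-sided exact permutation test gave p = 0.0286, the smallest that 4 against 4 allows. Spike-in share and knockdown therefore went together across the 8 libraries. The Sirt6-Ctrl libraries also varied more, with a median coefficient of variation over all tested genes of 32.03% against 14.6% in Sirt6-KD. Of 12 NP markers, 7 were tested, their summed level ranged from 156 to 182 CPM in Sirt6-Ctrl and from 167 to 184 CPM in Sirt6-KD, and that sum covered members with estimates of opposite sign. Car3 and Krt8 fell, and the other 5 were not called, with Car12 at 28.4 ± 31.0 CPM in Sirt6-Ctrl against 82.1 ± 10.8 CPM in Sirt6-KD (log2 fold change 1.53, adjusted p = 0.0776, edgeR), Sox9 at a log2 fold change of 0.48, Cd24 at -0.98, Acan at -0.62 and Foxf1 at -0.29. Krt18, Krt19, T, Shh and Col2a1, which include defining markers of the notochordal NP cell, had no named row among those used and were not analysed here. Fibroblast and annulus fibrosus markers, mostly Col1a1, summed to 13764 to 26038 CPM in Sirt6-Ctrl and 8263 to 17878 CPM in Sirt6-KD, with Dcn and Scx called lower among 6 of 6 tested. Smooth muscle markers (4 of 4 tested) summed to 167 to 1239 CPM in Sirt6-Ctrl and 270 to 774 CPM in Sirt6-KD, leukocyte markers (2 of 5 tested) to 1.48 to 3.28 CPM and 2.76 to 5.17 CPM, and none of the 4 endothelial markers had a named row to test. The part of cell composition in the results below was not tested, and in bulk RNA fewer cells of a type and less RNA per cell cannot be told apart.

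A gene was called when its adjusted p was below 0.05 and its fold change above 1.5. The 10 genes and the pathway lists below were chosen with earlier results of these data known. Their counts, set beside the shares over all genes, are therefore a description and no separate evidence. Of the 10 feedback genes, 7 were called higher in Sirt6-KD (Dusp5, Dusp6, Spry2, Spred1, Spred2, Spred3 and Ksr1), where 8.02% of the 13250 genes tested were called higher. None was called lower, against 10.7% of all genes, and none fell at an unadjusted p below 0.05 or with DESeq2 or limma-voom. The 3 genes that were not called were Dusp4, Spry1 and Spry4. The median log2 fold change of the 10 genes was 1.01, with a range from -0.47 to 2.99, beside a median of -0.016 over all genes tested. In the 7 called genes every Sirt6-KD library lay above every Sirt6-Ctrl library, a separation in this direction that 14.8% of all genes showed, and no feedback gene showed the opposite separation that 15.6% of all genes showed. Ksr1 reached the level the read filter asks for (0.286 CPM) in only 2 of 4 Sirt6-Ctrl libraries and so entered the test through its Sirt6-KD level, while the other 9 genes reached it in all 8 libraries. Without Ksr1, 6 of the 9 remaining genes were called.

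**Figure D1:**
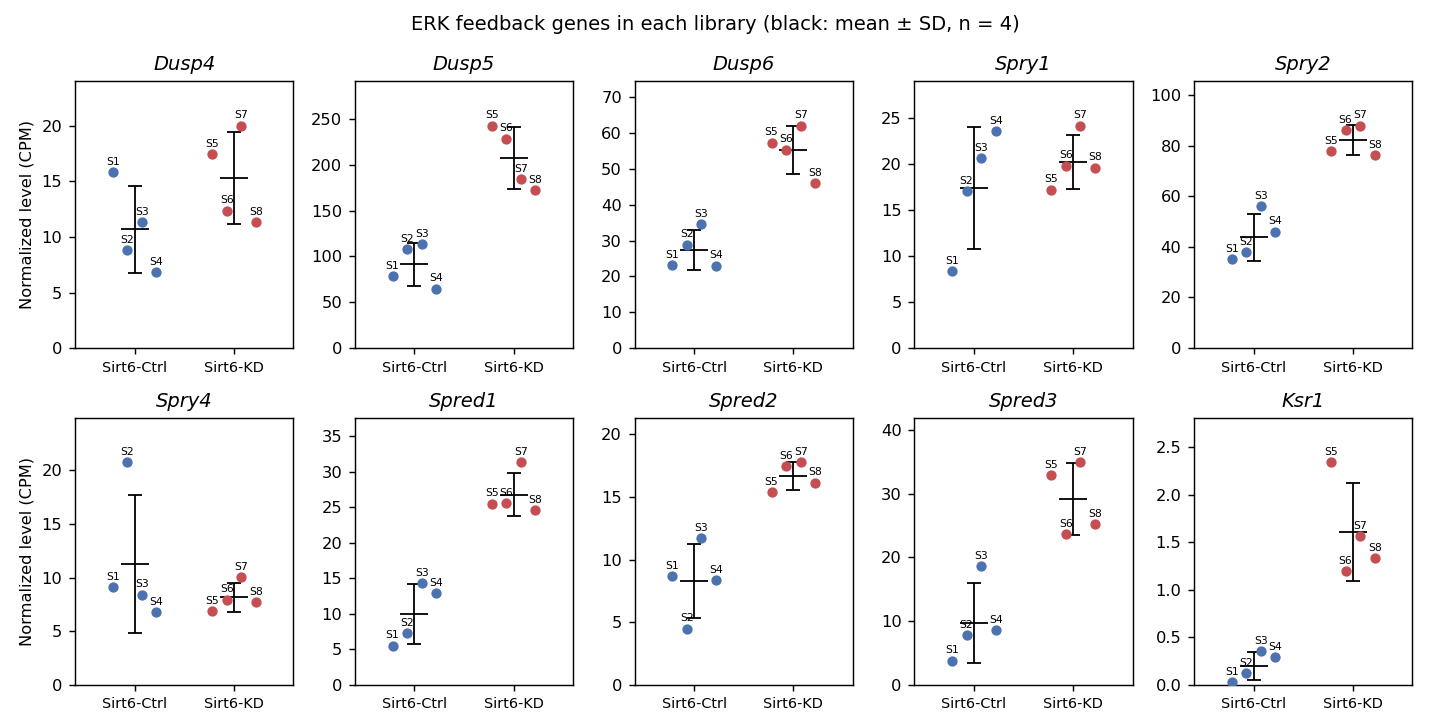
Each panel plots 1 feedback gene, with the TMM-normalized level in CPM on the y axis, 1 point per library (S1 to S4 Sirt6-Ctrl in blue, S5 to S8 Sirt6-KD in red) and black bars for the mean ± SD (n = 4). All Sirt6-KD points lie above all Sirt6-Ctrl points for Dusp5, Dusp6, Spry2, Spred1, Spred2, Spred3 and Ksr1, and the groups overlap for Dusp4, Spry1 and Spry4, where S2 is the high Sirt6-Ctrl point at 20.8 CPM.

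Among the phosphatases, the ERK-selective pair Dusp5 and Dusp6 rose, and Dusp4 did not pass the test. Dusp5 (ENSRNOG00000014061) encodes a nuclear phosphatase that binds and inactivates ERK, and Dusp6 (ENSRNOG00000023896) its cytoplasmic counterpart. The 250 bases before their transcription starts are shown because the short motifs of factors downstream of ERK were searched there (RefSeq, assembly GRCr8, chr1:262543524-262543773 for Dusp5 and chr7:35979354-35979603 for Dusp6, both plus strand). Capitals mark CArG boxes, the sites of serum response factor, and ETS motifs (CCGGAA), searched on both strands. The Dusp5 window holds 2 adjacent CArG boxes that start 82 and 72 bases before the start site. An ETS motif of Dusp5 begins 4 bases after the start, beyond the bases printed, and the Dusp6 window holds neither motif.
Dusp5: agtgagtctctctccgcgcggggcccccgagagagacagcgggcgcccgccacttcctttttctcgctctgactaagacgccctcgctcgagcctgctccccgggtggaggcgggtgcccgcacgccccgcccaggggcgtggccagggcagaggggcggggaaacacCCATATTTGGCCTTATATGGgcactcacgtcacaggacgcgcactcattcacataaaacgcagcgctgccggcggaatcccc
Dusp6: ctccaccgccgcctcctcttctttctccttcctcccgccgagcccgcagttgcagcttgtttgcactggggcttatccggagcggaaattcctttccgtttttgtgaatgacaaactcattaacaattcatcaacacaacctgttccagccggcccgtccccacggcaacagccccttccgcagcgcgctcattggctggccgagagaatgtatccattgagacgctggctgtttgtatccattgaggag

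Dusp5 measured 78.4, 108, 114 and 65.0 CPM in S1 to S4 and 243, 229, 185 and 172 CPM in S5 to S8. The lowest Sirt6-KD library, S8, was well above the highest Sirt6-Ctrl library, S3. The mean went from 91.3 ± 23.4 to 207 ± 33.8 CPM (SD, n = 4), 2.27-fold, a log2 fold change of 1.18 (SE 0.20, adjusted p = 0.00508, edgeR). In the GRCr8 annotation the span of Dusp5 overlaps that of LOC134485251, a long non-coding RNA. Exons and strands were not compared, and the counting setting for strand is not given. Whether any counted reads were shared is therefore not known. Dusp6 measured 23.2, 28.9, 34.7 and 23.1 CPM in S1 to S4 and 57.3, 55.4, 62.1 and 46.0 CPM in S5 to S8. Its groups did not overlap, and S3 was again the highest Sirt6-Ctrl and S8 the lowest Sirt6-KD library. Dusp6 rose 2.01-fold, from 27.5 ± 5.53 to 55.2 ± 6.74 CPM, a log2 fold change of 1.01 (SE 0.18, adjusted p = 0.00573, edgeR).

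Dusp4 (ENSRNOG00000011921), a nuclear phosphatase of ERK and of the stress kinases, measured 15.9, 8.78, 11.3 and 6.81 CPM in S1 to S4 and 17.4, 12.4, 20.02 and 11.4 CPM in S5 to S8. Library S1 lay above S6 and S8, so the groups overlapped, with 3 of 4 Sirt6-Ctrl libraries below every Sirt6-KD library. The log2 fold change was 0.52 (95% interval -0.16 to 1.19, adjusted p = 0.251, edgeR), an interval that holds the values of both Dusp5 and Dusp6. The Dusp4 estimate ranged from 0.35 to 0.80 when each library was left out in turn.

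Of the Sproutys, adaptor-like inhibitors that act between receptors and RAF, Spry2 rose and Spry1 and Spry4 did not pass the test. The Spry2 (ENSRNOG00000010058) window that follows (GRCr8, chr15:89111927-89112176, minus strand, read 5′ to 3′ along the gene) is the one of 2 listed starts that holds an ETS motif, in capitals, 171 bases before the start. It is shown because the motif lies among the bases before the start.
Spry2: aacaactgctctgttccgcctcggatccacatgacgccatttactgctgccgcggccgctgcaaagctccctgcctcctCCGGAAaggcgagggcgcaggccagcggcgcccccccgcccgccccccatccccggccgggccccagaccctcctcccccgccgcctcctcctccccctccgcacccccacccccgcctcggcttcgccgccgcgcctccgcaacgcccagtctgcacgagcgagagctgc

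Spry2 measured 35.1, 38.0, 56.0 and 46.0 CPM in S1 to S4 and 77.9, 86.2, 87.9 and 76.1 CPM in S5 to S8. The 4 Sirt6-KD libraries lay close together and all above S3, the highest Sirt6-Ctrl library. The mean went from 43.8 ± 9.33 to 82.0 ± 5.91 CPM, 1.87-fold, a log2 fold change of 0.91 (SE 0.16, adjusted p = 0.00637, edgeR). Spry1 (ENSRNOG00000025371) measured 8.33, 17.0, 20.7 and 23.6 CPM in S1 to S4 and 17.2, 19.8, 24.2 and 19.6 CPM in S5 to S8. Apart from S1, which was the lowest of all 8, the Spry1 values of the groups were interleaved, and the log2 fold change was 0.22 (95% interval -0.43 to 0.86, adjusted p = 0.639, edgeR). Without S1 and S2 it was -0.12.

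Spry4 (ENSRNOG00000013851) was the 1 feedback gene with a negative estimate. It measured 9.11, 20.8, 8.42 and 6.79 CPM in S1 to S4 and 6.89, 7.94, 10.04 and 7.69 CPM in S5 to S8. Library S2 was the highest by a wide margin, and the other 7 libraries lay between 6.79 and 10.04 CPM with no order by group. The log2 fold change was -0.47 (95% interval -1.27 to 0.33, adjusted p = 0.382, edgeR), and it was 0.02 without S2, 0.11 without S1 and S2, and 0.81 when libraries were scaled by their spike-ins. Within a library, Spry2 per Spry4 was the 1 ratio among 9 between members of the same family whose groups did not overlap. On the log2 scale it averaged 2.08 ± 0.886 in Sirt6-Ctrl against 3.34 ± 0.163 in Sirt6-KD (SD, n = 4, exact two-sided permutation test, p = 0.0286, adjusted p = 0.257 over the 9 ratios). Spry1 per Spry4 was nearly constant among the Sirt6-KD libraries, at 1.31 ± 0.0335, and spread over 0.670 ± 1.03 among the Sirt6-Ctrl libraries (difference 0.64, exact p = 0.343).

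All 3 Spred genes rose. Spred proteins, which carry a Sprouty-like domain, hold RAS inactive by bringing neurofibromin, the product of Nf1, to the membrane. Spred1 (ENSRNOG00000005209) measured 5.52, 7.27, 14.3 and 12.9 CPM in S1 to S4 and 25.5, 25.6, 31.3 and 24.7 CPM in S5 to S8. Within Sirt6-Ctrl the libraries S1 and S2 were the low pair and S3 and S4 the high pair, and all lay below Sirt6-KD. The mean went from 9.98 ± 4.25 to 26.8 ± 3.07 CPM, 2.68-fold, a log2 fold change of 1.42 (SE 0.30, adjusted p = 0.0109, edgeR), or 0.99 without S1 and S2 (adjusted p = 0.0107).

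Spred2 (ENSRNOG00000004888) measured 8.68, 4.48, 11.7 and 8.36 CPM in S1 to S4 and 15.4, 17.4, 17.8 and 16.2 CPM in S5 to S8. It varied least of the 10 genes among the Sirt6-KD libraries, with a coefficient of variation of 6.73%, and it rose 2.01-fold, from 8.31 ± 2.96 to 16.7 ± 1.12 CPM (log2 fold change 1.01, SE 0.28, adjusted p = 0.0306, edgeR). Its call was lost when S1, S4, S5, S6, S7 or S8 was left out, with adjusted p values up to 0.0864, while the log2 fold change stayed between 0.81 and 1.22. Spred3 (ENSRNOG00000051915) measured 3.79, 7.86, 18.6 and 8.56 CPM in S1 to S4 and 32.9, 23.7, 35.0 and 25.2 CPM in S5 to S8. Its Sirt6-Ctrl libraries spread 4.91-fold from S1 to S3, with S3 still below S6, the lowest Sirt6-KD library. Spred3 rose 3.01-fold, from 9.70 ± 6.30 to 29.2 ± 5.59 CPM (log2 fold change 1.59, SE 0.40, adjusted p = 0.0210, edgeR). Without S5 the adjusted p of Spred3 was 0.0607, without S7 it was 0.0642, and without S1 and S2 its log2 fold change was 1.11 (adjusted p = 0.0504). In GRCr8 the span of Spred3 overlaps that of LOC103689966, a protein-coding gene, and the span of Spred1 that of Eno1-ps25, a pseudogene. Exons and strands were not compared, so whether any counted reads were shared is not known.

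Ksr1 (ENSRNOG00000012818), the scaffold, was the gene with the fewest reads. It had 1, 4, 12 and 12 reads in S1 to S4 and 81, 40, 60 and 45 reads in S5 to S8. All Sirt6-KD libraries lay above all Sirt6-Ctrl libraries, and both S1 and S2 were below S3 and S4. The level went from 0.199 ± 0.149 to 1.61 ± 0.514 CPM, with 3 reads worth 0.0748 to 0.0938 CPM, and the log2 fold change was 2.99 (SE 0.86, 95% interval 1.08 to 4.90, adjusted p = 0.0329, edgeR). The Ksr1 call was lost when any of S1, S5, S6, S7 or S8 was left out (adjusted p up to 0.108, log2 fold change 2.65 to 3.40), when S1 and S2 were left out together (2.32, adjusted p = 0.0555) and when no filter on low counts was used (3.01, adjusted p = 0.0534).

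The same libraries recurred at the ends of the ranges. S7 was the highest Sirt6-KD library for 8 of the 10 genes (all but Dusp5 and Ksr1, where S5 was highest), and S3 was the highest Sirt6-Ctrl library for the 7 called genes. S1 was the lowest Sirt6-Ctrl library for Spry1, Spry2, Spred1, Spred3 and Ksr1. The coefficient of variation ran from 20.1% (Dusp6) to 75.0% (Ksr1) among Sirt6-Ctrl libraries and from 6.73% (Spred2) to 31.9% (Ksr1) among Sirt6-KD libraries, and it was larger in Sirt6-Ctrl for each of the 10 genes.

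Leaving out S1 and S2, the libraries with the high spike-in share, kept 5 of the 7 calls (Dusp5, Dusp6, Spry2, Spred1 and Spred2). The Dusp5 estimate was then 1.22, Dusp6 0.95, Spry2 0.70 and Spred2 0.74 on the log2 scale. Leaving out S5 or S7 kept 4 of the 7, Dusp5, Dusp6, Spry2 and Spred1, which also kept their calls without each other library in turn. When libraries were scaled by their spike-in reads in place of TMM, the median log2 fold change over all genes tested moved from -0.016 to 0.94, and called genes went from 1063 higher and 1416 lower to 20 and 4. None of the 10 feedback genes was then called, although 8 were higher at an unadjusted p below 0.05. Relative to that median the spike-in-scaled log2 fold changes were 1.22 for Dusp5, 0.998 for Dusp6, 0.81 for Spry2, 1.22 for Spred1, 0.86 for Spred2, 1.38 for Spred3, 2.71 for Ksr1 and -0.13 for Spry4. Subtracting the median takes out the shift that all genes share, so these values largely return to the TMM scale and are no separate check.

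**Figure D2:**
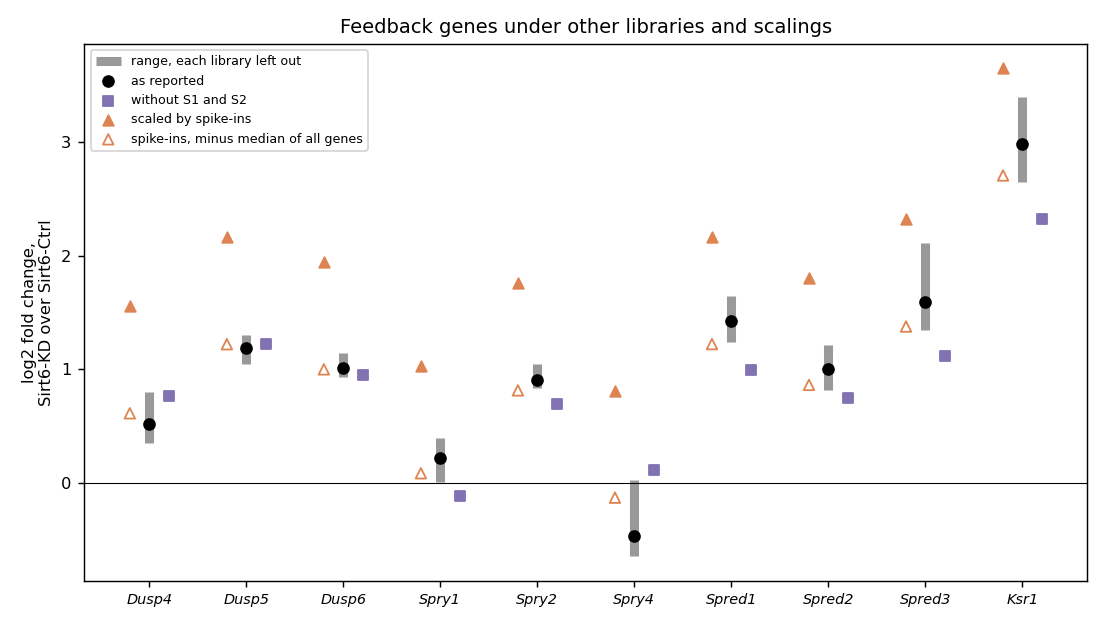
For each feedback gene (x axis) the log2 fold change, Sirt6-KD against Sirt6-Ctrl (y axis), is plotted as reported (black circles), over the 8 fits that each leave out 1 library (grey bars), without S1 and S2 (squares), and with spike-in scaling before and after the median of all genes is subtracted (filled and open triangles). The 7 called genes stay above 0 in every setting plotted, Spry1 goes below 0 without S1 and S2 (-0.12), and Spry4 moves from -0.47 to 0.81 under spike-in scaling. The open triangles largely return to the TMM scale, so their sign is no separate check.

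Of 16 genes of the RAS-RAF-MEK-ERK core, the cascade that the feedback genes restrain and that Ksr1 scaffolds, all were tested. Of these, 1 was called higher and 1 lower, where 8.02% and 10.7% of all genes were, so these counts of calls were near the background. The median log2 fold change of the 16 was 0.26. With no fold limit, 3 were higher and 2 lower at an adjusted p below 0.05 (edgeR), beside 1207 and 1697 of the 13250 genes tested. The kinases were not called. Map2k1, which encodes MEK1, had a log2 fold change of 0.046 (95% interval -0.21 to 0.30), Map2k2 (MEK2) of -0.12 (-0.40 to 0.16) and Mapk3 (ERK1) of -0.10 (-0.36 to 0.16), with adjusted p values of 0.530 to 0.813 (edgeR). Braf had 0.73 (adjusted p = 0.0824, edgeR). The 2 called genes were RAS genes that went opposite ways. Nras rose from 37.0 ± 14.1 to 69.3 ± 2.43 CPM (log2 fold change 0.91, SE 0.23, adjusted p = 0.0219, edgeR). Hras fell from 86.1 ± 18.1 to 56.4 ± 1.59 CPM (-0.61, SE 0.16, adjusted p = 0.0208, edgeR). With spike-in scaling its estimate was 0.47, or -0.47 relative to the median of all genes. Neither call held without S1 and S2 (Nras 0.55, adjusted p = 0.0531, and Hras -0.36, adjusted p = 0.0644) or without S1, S5, S6 or S7, and Hras also lost its call without S2 or S8.

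**Figure D3:**
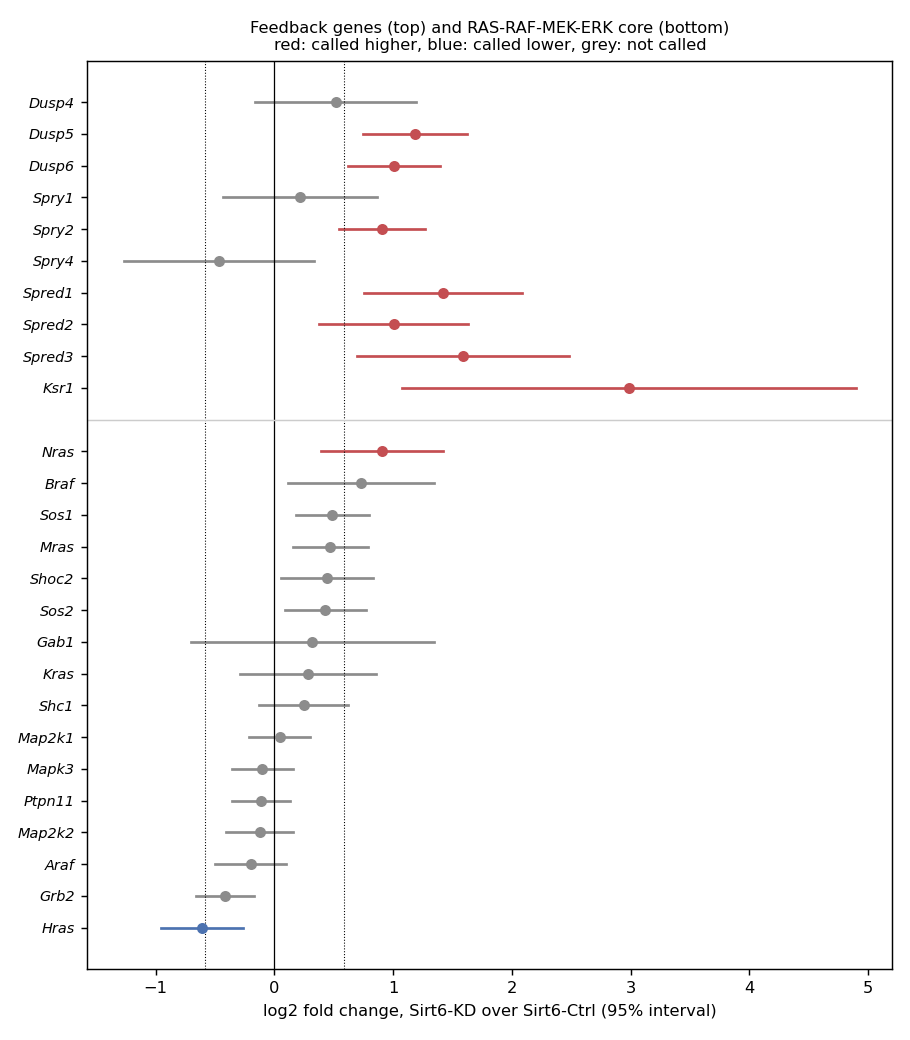
Log2 fold changes between Sirt6-KD and Sirt6-Ctrl (x axis, positive where Sirt6-KD was higher) with 95% intervals are plotted for the 10 feedback genes (top) and the 16 RAS-RAF-MEK-ERK core genes (bottom), with called genes in red (higher) and blue (lower), others in grey, and dotted lines at a fold change of 1.5. In the top block 7 genes are called higher, and in the bottom block Nras is called higher and Hras lower. Hras was not called under spike-in scaling, where its estimate was 0.47, or -0.47 relative to the median of all genes. At an unadjusted p below 0.05 (edgeR), 7 feedback genes were higher and 0 lower. In the core, 6 genes were higher and 2 lower by that measure.

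Of 28 other brakes and scaffolds of the pathway, 26 were tested, with a median log2 fold change of 0.26. Of the 26, 7 were called higher and 1 lower, where 8.02% and 10.7% of all genes tested were. Rasa1, a GTPase-activating protein that switches RAS off, rose from 60.8 ± 10.7 to 129 ± 10.7 CPM (log2 fold change 1.08, SE 0.15, adjusted p = 0.00249, edgeR). Nf1, whose product works with the Spred proteins, rose from 22.4 ± 11.4 to 57.0 ± 6.45 CPM (1.35, adjusted p = 0.0313, edgeR). It was named after its value was seen, for its tie to the Spred genes, and it was not called without S1, S5, S6, S7 or S8 (adjusted p up to 0.0832, edgeR). Iqgap1, a scaffold of the cytoskeleton that binds MEK and ERK, rose from 477 ± 187 to 1163 ± 34.3 CPM (1.29, adjusted p = 0.00713, edgeR). Cnksr3, of the CNK scaffold family, rose from 51.9 ± 7.61 to 79.8 ± 9.37 CPM (0.62, adjusted p = 0.0182, edgeR), and it fell short of a call without S1, S6 or S7. Lamtor3, the MP1 scaffold of MEK1 and ERK1 on late endosomes, fell from 54.0 ± 10.2 to 33.97 ± 3.72 CPM (-0.67, adjusted p = 0.0195, edgeR). With spike-in scaling the Lamtor3 estimate was 0.40, or -0.54 relative to the median of all genes. It was not called without S1, S2, S6, S7 or S8. Within the Dusp family, Dusp1, which acts mainly on the stress kinases, averaged 578 ± 53.0 CPM in Sirt6-Ctrl against 646 ± 36.9 CPM in Sirt6-KD (0.16, 95% interval -0.12 to 0.44, adjusted p = 0.385, edgeR), and none of the 8 further Dusp genes tested in this list was called. Dusp7 came nearest, at 20.3 ± 6.53 CPM in Sirt6-Ctrl against 34.1 ± 6.16 CPM in Sirt6-KD (0.75, adjusted p = 0.0511, edgeR). Every Sirt6-KD library lay above every Sirt6-Ctrl library for Dusp7.

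Of 18 transcripts that ERK signaling is known to induce, 17 were tested, with a median log2 fold change of 0.69. Of the 17, 10 were called higher and 1 lower, where 8.02% and 10.7% of all genes tested were. Epha2, an ephrin receptor, rose from 66.3 ± 14.6 to 204 ± 15.2 CPM (1.62, adjusted p = 0.000778, edgeR). The immediate-early factor Egr1 rose from 160.4 ± 21.9 to 288 ± 11.4 CPM (0.84, adjusted p = 0.00401, edgeR). Plaur, the urokinase receptor, rose from 15.3 ± 1.88 to 31.7 ± 2.63 CPM (1.05, adjusted p = 0.00416, edgeR), and the AP-1 subunit Fosl1 rose from 49.9 ± 15.8 to 116 ± 14.9 CPM (1.21, adjusted p = 0.00604, edgeR). The ETS factors Etv4 and Etv5, often read together with Dusp6 and Spry4 as outputs of fibroblast growth factor signaling, differed. Etv4 rose from 23.8 ± 6.60 to 45.5 ± 3.22 CPM (0.93, adjusted p = 0.0114, edgeR), while Etv5 averaged 65.2 ± 10.2 CPM in Sirt6-Ctrl against 64.3 ± 7.05 CPM in Sirt6-KD (-0.02, 95% interval -0.35 to 0.31, adjusted p = 0.940, edgeR). Beside Etv5, the genes not called were Fos (0.28, adjusted p = 0.575), Ier2 (0.058, 0.795), Junb (0.31, 0.0899), Etv1 (0.61, 0.240) and Ccnd1 (0.051, 0.813, all edgeR). Epha4 fell from 4.54 ± 1.09 to 1.28 ± 0.527 CPM (-1.82, adjusted p = 0.0265, edgeR), a call lost without S1, S4, S5, S6 or S7 and without S1 and S2 together.

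Upstream of RAS, 20 of 23 listed receptors and ligands were tested. Among these, 6 were called higher and none lower, where 8.02% and 10.7% of all genes tested were. None fell at an unadjusted p below 0.05 or with DESeq2 or limma-voom, and the median log2 fold change was 1.01. Tgfa and Ereg, which encode ligands of the epidermal growth factor receptor, rose from 43.9 ± 9.72 to 158 ± 11.8 CPM (1.85, adjusted p = 0.000402, edgeR) and from 6.36 ± 3.12 to 23.7 ± 4.46 CPM (1.90, adjusted p = 0.00636, edgeR). The receptor tyrosine kinase Axl rose from 333 ± 113 to 726 ± 12.9 CPM (1.13, adjusted p = 0.00845, edgeR). Tgfa was the 1 gene of the 4 lists that was still called with spike-in scaling (2.82, or 1.87 relative to the median of all genes).

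**Figure D4:**
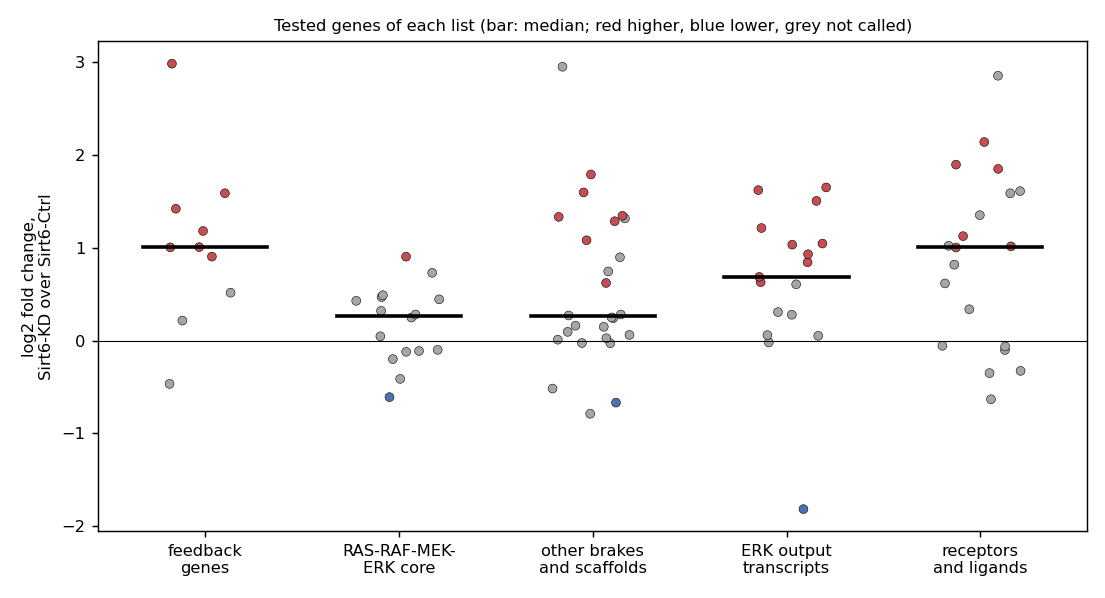
Each point is 1 tested gene, with its log2 fold change (Sirt6-KD against Sirt6-Ctrl) on the y axis and its list on the x axis, in red (called higher), blue (called lower) or grey (not called), and black bars give the median of each list. The medians are 1.01 for the feedback genes, 0.26 for the core, 0.26 for other brakes and scaffolds, 0.69 for ERK output transcripts and 1.01 for receptors and ligands. The 3 blue points are Hras, Lamtor3 and Epha4. Under spike-in scaling Hras and Lamtor3 had positive estimates, which were negative relative to the median of all genes.

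The genes whose profile over the 8 libraries was most like that of a feedback gene were found as the smallest root mean square difference between centred log2 CPM profiles. For Dusp6 these were N4bp1 (0.0781), Fam160b1 (0.0785) and Ier5 (0.0938), and for Spred1 they were Abr (0.124), Arid5b (0.135) and Kif21a (0.170), all of them genes called higher. For Spry4 they were Gfod2 (0.145), Mtrr (0.157) and Tmlhe (0.159), none of them called. These calls follow from choosing genes by likeness over the same 8 libraries and are no separate evidence.

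RefSeq start-site windows of 300 bases (250 before the start and 50 after) were matched by symbol for 9 of the 10 feedback genes, all but Dusp4. The ETS motif CCGGAA occurred in 3 of the 9 (Dusp5, Spry2 and Spry4), beside 15% of 33469 windows of the same length over all genes. The CRE half-site TGACG occurred in 4 (Dusp5, Ksr1, Spred2 and Spry2) beside 21.2%, and CArG boxes in Dusp5 only, beside 1.64%. The AP-1 motif TGANTCA, found in 7.33% of windows, and the full CRE TGACGTCA, which contains the half-site and was found in 1.83%, occurred in none of the 9. Of the genes with an ETS motif, Dusp5 and Spry2 rose and Spry4 did not pass the test, while Dusp6, Spred1 and Spred3 rose without a match to any of these motifs in this window. The GC content of the windows was 56.0% to 76.3%, with a median over all windows of 51.7%. A letter match is a description of the window and was not tested for binding.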

How the data were processed

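RNA-seq was performed on primary rat NP cells, and the authors deposited raw read counts for each of the 8 libraries, by Ensembl gene and by ERCC spike-in, with no normalization. Trimmomatic 0.36, STAR 2.5.2b, featureCounts, Subread 1.5.2, DESeq2 and the build Rnor_6.0 are named in the submitters' processing notes. Whether reads were counted by strand is not given in the sources used here. The authors also deposited a table of 13612 rows with their normalized signal (raw counts divided by 1 size factor per library), log2 fold changes and p-values of their own comparison. It was used for gene names only, and 72 of the genes tested had no name.

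Rows were filtered with filterByExpr, normalized by TMM and tested, unpaired and two-sided, with edgeR 4.0.16 (glmQLFit, glmQLFTest) in R 4.3.3 over 13313 rows, of which 63 were spike-ins, with Benjamini-Hochberg adjustment. The scripts were tested on simulated data. Intervals are 95%, and log2 CPM used a prior count of 2. With totals of 31994838 to 40124813 counts, 3 counts equal 0.0748 to 0.0938 CPM, a floor that covers counting error only. Every pair of libraries of a group differed beyond sampling noise (chi-square per degree of freedom 18.1 to 306), so none was a mere resequencing of another. That comparison cannot show whether libraries came from separate rats. Each was counted as 1 sample because the methods give independent experiments.

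The 10 genes and the lists were chosen with earlier results of these data known. Beside the 10 genes, the 4 pathway lists held 85 genes (79 tested), of which Dusp2 and Egr3 were below the filter and Ksr2, Erbb3, Pdgfb and Igf1 were not analysed here. Some genes of the core list are not reported here and were left out of it. Named were up to 3 called genes of each list and direction with the smallest p, Sirt6, a fixed set (Braf, Map2k1, Map2k2, Mapk3, Dusp1, Egr1, Fosl1, Etv4, Etv5), and the 3 genes most like Dusp6, Spry4 and Spred1. Dusp7 and the other output transcripts that were not called (Fos, Ier2, Junb, Etv1 and Ccnd1) were named after their values were seen. The overlapping genes and the start-site windows came from RefSeq on GRCr8, a different build from the counts, matched by symbol. The ratios (0.5 reads added) were chosen after the values were seen. Alternatives were other scalings (RLE, spike-ins), filters (none, or CPM above 1 in 4 libraries), removal of spike-in rows, DESeq2 1.42.0, limma-voom (limma 3.58.1), glmTreat, no fold limit and libraries left out.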

Additional observations from a re-analysis of the deposited data

Results flagged for a closer look

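A library was looked for that lay far from the other 3 of its group, by the gap to its nearest neighbour as a share of the group's range, against the 95% limit of Dixon's test for 4 samples. Over the genes named, 84 groups were examined and 4 such libraries were found, while chance gives about 1 in 20, or about 4 in 84, so the number found is near that of chance. The 84 groups left out the cell type markers, Dusp7, Fos, Ier2, Junb, Etv1 and Ccnd1. Spry4 in S2, at 20.8 CPM, had a gap of 0.834 above the other Sirt6-Ctrl libraries, and Mtrr had a gap of 0.974 in the same library. Mtrr was chosen for its likeness to Spry4 over these 8 libraries, so its value in S2 followed from that choice and is no separate evidence. Spred1 in S7, at 31.3 CPM, had a gap of 0.858 above the other Sirt6-KD libraries. Egr1 in S1 was the low Sirt6-Ctrl library with a gap of 0.904. S1 and S2 are also the libraries with the high spike-in share, whose part in these values was not tested.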

How the results depend on the processing

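No paired analysis was possible because neither the labels nor the count columns carry a number shared between the groups. With RLE size factors, spike-in rows removed, the CPM filter, DESeq2 or limma-voom, all 10 feedback genes kept the direction and call reported. With spike-in scaling 0 of them were called higher (8 at an unadjusted p below 0.05), and calls were left for 0 core genes in either direction (7 higher unadjusted), 0 other brakes and scaffolds (19), 0 ERK output transcripts (14) and 1 receptor or ligand. The log2 fold change of Sirt6 was then -0.36 (adjusted p = 0.567, edgeR), or -1.31 relative to the median of all genes. When a fold above 1.5 was itself tested (glmTreat), 0 feedback genes (7 unadjusted), 0 core genes in either direction (1 higher and 0 lower unadjusted), 1 higher and 0 lower among other brakes and scaffolds, 1 higher and 0 lower among output transcripts (1 lower unadjusted) and 3 receptors and ligands were called. DESeq2 called 2 core genes and 11 other brakes and scaffolds higher, and limma-voom 11 of the latter. With no fold limit 3 core genes were higher and 2 lower, and 2 other brakes were lower. With spike-in rows removed or no count filter, 0 core genes were called lower (2 unadjusted in each). Without S1 and S2, 0 core genes were called either way (3 higher and 2 lower unadjusted), other brakes had 4 higher and 0 lower (1 unadjusted), and output transcripts had 0 lower (1 unadjusted).

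Leaving out each library in turn gave 4 to 7 feedback genes higher and 0 lower, with Sirt6 at -1.40 to -1.29. The ranges were 0 to 2 higher and 0 to 1 lower for the core, 2 to 9 and 0 to 2 for other brakes (2 higher without S1, S6 or S7, 3 without S5 and 4 without S8), 7 to 10 and 0 to 1 for output transcripts, and 5 to 10 (10 without S3) and 0 for receptors and ligands. Over all genes 445 to 1699 were higher and 700 to 1913 lower, against 1587 and 1721 with DESeq2, 1591 and 1309 with limma-voom, 92 and 185 with glmTreat and 810 and 709 without S1 and S2. Signs changed for genes that were not called or under spike-in scaling. Spike-in scaling gave 0.81 for Spry4, 0.40 for Lamtor3, 0.47 for Hras, 0.90 for Map2k2, 0.92 for Mapk3 and 1.03 for Etv5. The median over all genes tested was then 0.94. Without S1 and S2 the values were -0.12 for Spry1, 0.11 for Spry4, -0.012 for Map2k1, 0.019 for Map2k2, 0.030 for Mapk3 and 0.18 for Etv5. Spry4 was 0.020 without S2 and from -0.65 to 0.020 with 1 library left out, and Etv5 was 0.012 with spike-in rows removed, 0.019 with no count filter and from -0.096 to 0.090 with 1 library left out. Braf was called higher with DESeq2 (0.75, DESeq2 adjusted p = 0.0368) and without S3 (0.93, adjusted p = 0.0309, edgeR). The cause of these changes was not tested. Depth limited Ksr1 most, with 1 read in S1.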
